A study of Mus musculus with 6 samples.

Results

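The Tnf locus is described here through CTBP2 binding, measured by chromatin immunoprecipitation and sequencing (ChIP-seq) in mouse bone marrow-derived macrophages. Its members are the deposited CTBP2 sites on chromosome 17 that lie around Tnf and its neighbours Lta and Ltb, chosen by position alone. There are 17 such sites among 62236 in all, and 2788 on chromosome 17. The first is at chr17:35383288-35384288 and the last at chr17:35454305-35455305, and every one is 1001 bp wide. Site positions are taken as GRCm39, and the sites are numbered 1 to 17 in genome order.

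The labels describe 3 libraries of cells treated for 3 h with 100 ng/ml lipopolysaccharide (LPS), which is shed from the outer membrane of Gram-negative bacteria, and 3 libraries of cells treated with vehicle (PBS). Both groups were wildtype cells of male C57BL6/N mice aged 6 to 12 weeks, grown from bone marrow in medium with L929 supernatant until day 6. The labels number the replicates 1 to 3 in each group and do not say whether these are separate animals or cultures, so p-values measure only the spread between libraries, which may be technical. Chromatin was fixed with DSG and formaldehyde and sheared to fragments of 500 to 1000 bp, which limits how finely a site can be placed. Binding data hold no expression level, so the cell type was not checked against its markers, and no input library was analysed here.

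TNF is a cytokine that macrophages release soon after they meet LPS, and it signals through TNF receptors to the transcription factor NF-kB. Its gene sits in the class III part of the major histocompatibility complex, between the genes of 2 related cytokines, lymphotoxin alpha (Lta) and lymphotoxin beta (Ltb). CTBP2 does not bind DNA in a sequence-specific way itself. It is a co-repressor that DNA-binding factors bring to chromatin, together with histone deacetylases and demethylases.

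The gene names deposited with these sites (H2-Q4 to H2-Q9) follow another build, so genes were placed by a measured offset. RefSeq gene starts (GRCm38.p6) within 2 Mb of Tnf were slid along the sites, leaving Tnf itself out. At an offset of 219 kb, 62 of 236 starts had a site centre within 300 bp, against 36 at the next best offset and 7 with no offset. The distances of these 62 from their sites had an SD of 155 bp. The limit of 300 bp bounds this SD, so it does not measure the error of the offset. Every distance to a gene below carries an error that was not measured. At this offset site 9 lay inside Tnf, 2.37 kb past its start and thus near its end. Site 10 lay inside Lta, 1.03 kb past its start, and site 8 lay 1.46 kb upstream of the Ltb start. No listed site covered the start of any of these 3 cytokine genes, whereas sites 1 and 17 covered those of Prrc2a and Nfkbil1.

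The stretches of 250 bases before these 5 starts are shown because they set the cytokine starts, which no listed site covers, beside the neighbouring starts that one does. They are RefSeq sequences of GRCm38.p6, 5′ to 3′ along each gene, with capitals for matches to an NF-kB pattern on either strand (GGG, any 5 bases, CC), where overlapping matches run together.
Tnf, chr17:35202008-35202257, minus strand: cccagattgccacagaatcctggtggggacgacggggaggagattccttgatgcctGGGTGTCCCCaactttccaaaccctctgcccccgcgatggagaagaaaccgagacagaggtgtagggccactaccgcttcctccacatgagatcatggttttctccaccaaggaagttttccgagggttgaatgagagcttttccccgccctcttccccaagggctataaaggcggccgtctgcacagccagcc
Lta, chr17:35205352-35205601, minus strand: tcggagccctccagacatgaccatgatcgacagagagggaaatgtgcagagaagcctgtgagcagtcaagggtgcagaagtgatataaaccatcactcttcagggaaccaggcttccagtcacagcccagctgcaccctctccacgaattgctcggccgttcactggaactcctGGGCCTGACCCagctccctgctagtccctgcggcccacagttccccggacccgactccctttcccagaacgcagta
Ltb, chr17:35194257-35194506, plus strand: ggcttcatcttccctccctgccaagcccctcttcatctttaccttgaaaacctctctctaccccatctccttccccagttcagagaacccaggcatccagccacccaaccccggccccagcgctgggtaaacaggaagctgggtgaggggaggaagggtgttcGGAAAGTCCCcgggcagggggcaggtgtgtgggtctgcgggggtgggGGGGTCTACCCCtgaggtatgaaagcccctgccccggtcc
Nfkbil1, chr17:35235787-35236036, minus strand: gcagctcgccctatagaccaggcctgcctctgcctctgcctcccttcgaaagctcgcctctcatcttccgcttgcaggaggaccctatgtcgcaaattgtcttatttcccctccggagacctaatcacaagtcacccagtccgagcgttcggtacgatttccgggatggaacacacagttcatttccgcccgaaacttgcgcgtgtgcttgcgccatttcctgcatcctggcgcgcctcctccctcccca
Prrc2a, chr17:35164878-35165127, minus strand: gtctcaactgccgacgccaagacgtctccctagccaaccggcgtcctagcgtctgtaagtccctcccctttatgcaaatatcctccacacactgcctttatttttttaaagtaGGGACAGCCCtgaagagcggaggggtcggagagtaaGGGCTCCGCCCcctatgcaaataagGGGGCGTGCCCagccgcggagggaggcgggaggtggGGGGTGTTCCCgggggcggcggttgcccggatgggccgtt

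The NF-kB pattern matched once before Tnf, at bases 194 to 185 upstream of the start and on both strands. Counting each first base of a match once, it matched at 2 overlapping positions before Lta, at 4 before Ltb, at 7 before Prrc2a and at none before this start of Nfkbil1. It is a loose pattern, since 45.8% of 32817 RefSeq promoter stretches of the same length held it. The PU.1 pattern GGAAGT, that of a factor which directs macrophage identity, was found before Tnf at bases 83 to 78 and before none of the other 4 genes (19.7% of all promoters held it). The ZEB pattern CACCTG was found before Ltb alone of the 5 (17.2% of all). The AP-1 pattern TGANTCA (6.75% of all) and the interferon pattern (GAAA, any 2 bases, GAAA, in 2.97% of all) were found before none of the 5. All patterns were searched on both strands. A match here is a run of letters and no measured site, and the sequence under site 9 was not analysed here.

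The strongest CTBP2 site of the locus after LPS lay inside Tnf itself, and it was also the member with the largest gain. Values are the deposited normalised signal with each library divided by its median and multiplied by the mean of the 6 medians, here called the scaled signal. Site 9, at chr17:35418184-35419184, had a scaled signal of 867, 872 and 1000.1 in the LPS libraries, against 54.7, 57.7 and 114 in the vehicle libraries. The groups were far apart, and vehicle replicate 3 was the highest of its group.

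The means at site 9 were 913 ± 75.5 in LPS and 75.4 ± 33.3 in vehicle (SD, n = 3 each). The log2 fold, LPS over vehicle on the log2(scaled signal + 1) scale, was 3.66 (SE 0.26, 95% interval 3.05 to 4.27, limma adjusted p = 2.13e-05), a 12.6-fold gain. Of all 62236 sites, 4 had a larger log2 fold. In LPS 13 sites had a higher mean signal, whereas in vehicle 17088 did, which put it at the 72.5th percentile there. Its adjusted p was less extreme than its fold, and 2772 sites had a smaller one. The spread that limma gave this site rested on 7.71 degrees of freedom, against about 33.5 at most other members. When each single library was left out, the limma adjusted p was smallest without vehicle replicate 3 (1.23e-24, log2 fold 3.99). It was largest without LPS replicate 1 (limma adjusted p = 0.000494, log2 fold 3.70).

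**Figure D1:**
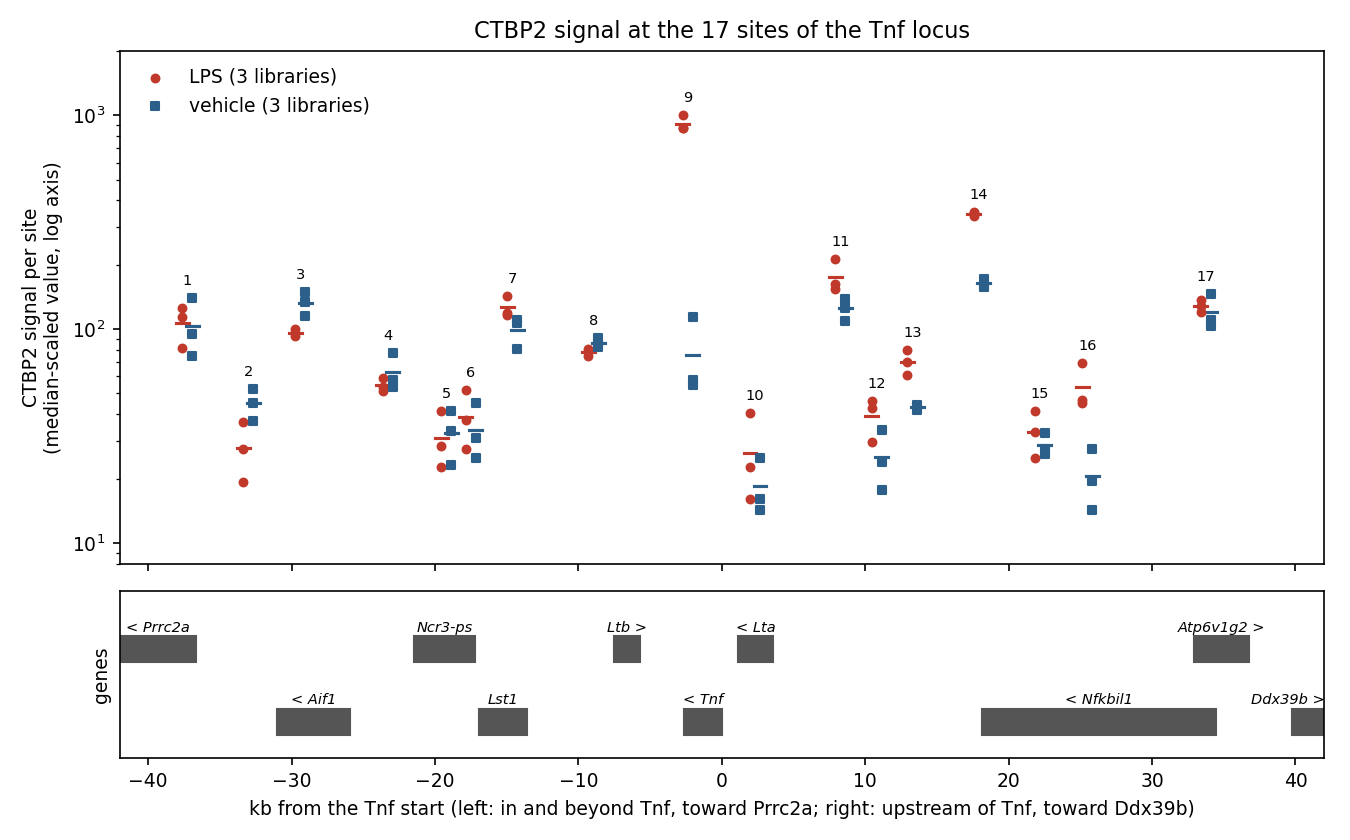
Scaled CTBP2 signal (log axis) at the 17 sites, with 3 LPS and 3 vehicle libraries as points, group means as bars, and gene bodies below at the measured offset, against distance in kb from the Tnf start. Site 9, inside Tnf, has 867 to 1000.1 in LPS and 54.7 to 114 in vehicle, and site 14 is the next highest.

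The gain at Tnf was also visible as a share within each library, which scaling does not change. Site 9 made up 39.6, 38.3 and 38.9% of the summed deposited signal of the 17 sites in the LPS libraries, against 4.78, 5.15 and 8.25% in the vehicle libraries. Its signal was 14.9, 14.3 and 13.4 times the median of the other 16 sites in LPS and 1.11, 1.14 and 1.77 times that median in vehicle. In vehicle cells it was thus close to a typical site of its own neighbourhood. On the log2 scale this ratio averaged 3.83 ± 0.08 in LPS and 0.39 ± 0.38 in vehicle (SD, n = 3 each), a difference of 3.44. The groups did not overlap, and the exact two-sided permutation p was 0.1, the smallest that 3 against 3 libraries allow. Site 9 was taken for this ratio as the member with the highest mean over all 6 libraries. Its LPS values gave it that rank, since in vehicle site 14 averaged 163 and site 9 only 75.4. The ratio and its p are therefore a description and no independent evidence of a gain.

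**Figure D2:**
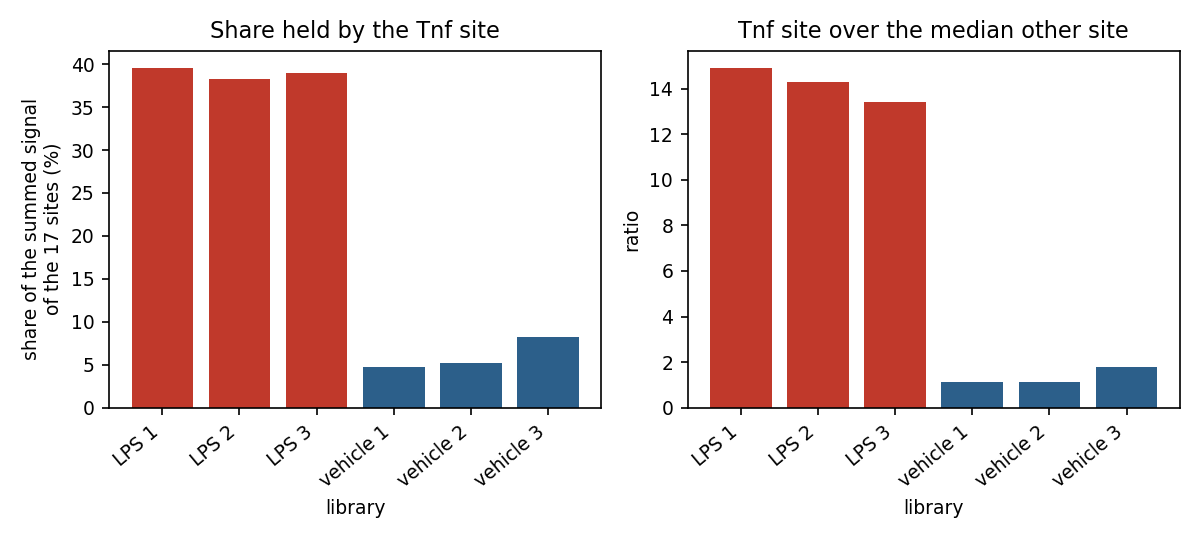
Share of the summed deposited signal of the 17 sites that lay in site 9 (left, percent), and ratio of site 9 to the median of the other 16 sites (right), 1 bar per library, LPS in red and vehicle in blue. The share is 38.3 to 39.6% in LPS and 4.78 to 8.25% in vehicle.

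Besides site 9, 4 members rose, 2 fell and 10 did not pass the test (limma on the scaled signal, adjusted p under 0.05 over all sites). The higher members are thus 5 of 17, or 29.4%, beside 16.1% of all sites, and the lower ones 11.8% beside 13.5%. The median log2 fold of the 17 was 0.20, beside -0.02 over all sites. With so few members these shares are a description. In 6 members the LPS group lay wholly above the vehicle group (21.6% of all sites did so), and in 3 it lay wholly below (20.6% of all sites). Of all called sites 54.4% were higher, but on the deposited values without scaling 97.5% were, where the background was 1.89% higher and 0.0482% lower.

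The lymphotoxin genes, which are expressed mainly by lymphocytes, had sites that did not pass the test. Site 10, inside Lta at chr17:35422869-35423869, had a scaled signal of 22.7, 16.0 and 40.3 in LPS, against 14.3, 16.0 and 25.0 in vehicle. Its mean level lay at the 1.55th percentile of all sites, and its groups overlapped. Its log2 fold was 0.43 (SE 0.36, limma adjusted p = 0.387), with a 95% interval of -0.29 to 1.16 that leaves room for a gain of more than 2-fold but not for one as large as at site 9.

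Site 8, upstream of Ltb at chr17:35411597-35412597, had 74.9, 80.7 and 77.9 in LPS, against 90.4, 86.0 and 82.6 in vehicle. All LPS libraries lay just below the vehicle libraries. With a 95% interval of -0.46 to 0.17, the log2 fold of -0.15 did not pass (SE 0.16, limma adjusted p = 0.507).

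The other higher members all lay on the upstream side of Tnf, from beyond the Lta start into the body of Nfkbil1, which encodes a protein related to the inhibitors of NF-kB. The strongest was site 14, at chr17:35438481-35439481, 17.9 kb upstream of the Tnf start and 0.244 kb from the end of Nfkbil1. It had 351, 350.4 and 339 in the LPS libraries, against 171, 161 and 158 in the vehicle libraries. The libraries of each group were close together and the groups far apart.

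Site 14 averaged 347 ± 6.84 in LPS and 163 ± 7.09 in vehicle (SD, n = 3 each). Its log2 fold came to 1.08 (SE 0.12, limma adjusted p = 2.42e-08). Unlike site 9 it was already strong in vehicle cells, where 2009 of all sites had a higher mean, and in LPS 89 did. Its fold was smaller than that of site 9 and its adjusted p was smaller too.

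Site 16, at chr17:35446039-35447039, lay inside Nfkbil1 and 25.5 kb upstream of the Tnf start. It had 46.5, 45.2 and 69.4 in LPS, against 14.3, 19.5 and 27.5 in vehicle. The groups did not overlap, and the site was weak in vehicle cells. At 1.37 its log2 fold was the second largest of the locus (SE 0.25, limma adjusted p = 6.06e-05).

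Between Lta and Nfkbil1 lay 2 smaller gains. Site 13, at chr17:35433851-35434851 and 13.3 kb upstream of the Tnf start, had 61.3, 70.1 and 79.8 in LPS, against 41.6, 44.4 and 43.8 in vehicle. Site 11, at chr17:35428818-35429818 and 8.26 kb upstream, had 153, 162 and 212 in LPS, against 109, 126 and 139 in vehicle. In both, every LPS library lay above every vehicle library.

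The log2 fold was 0.68 at site 13 (SE 0.18, limma adjusted p = 0.00325) and 0.48 at site 11 (SE 0.15, limma adjusted p = 0.0115). Site 12, between them, had a log2 fold of 0.65 (SE 0.25, 95% interval 0.13 to 1.17) and just missed the threshold (limma adjusted p = 0.0510). Unlike at sites 11 and 13 its groups overlapped, with 29.5 in LPS replicate 1 and 33.8 in vehicle replicate 3. It passed in 2 of the 6 fits that left out a library. Sites 15 and 17, inside Nfkbil1, had 0.17 and 0.11 and did not pass either. Site 17 covers an Nfkbil1 start, 0.031 kb from its centre, and lies within Atp6v1g2, a gene of the proton pump that acidifies vesicles.

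All 8 members upstream of site 9 had a log2 fold above 0, from 0.11 to 1.37 with a median of 0.57, and 4 of them passed. Of the 8 on its other side, toward Ltb, Lst1, Aif1 and Prrc2a, 3 had one above 0, with a median of -0.11 and a range of -0.71 to 0.35. The difference between the sides was noticed in the data and was not tested.

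The 2 lower members lay on that other side, at and near Aif1, which encodes IBA1, an actin-binding protein of macrophages and microglia. Site 3, inside Aif1 at chr17:35391157-35392157, had 99.9, 95.8 and 92.9 in LPS, against 149, 133 and 115 in vehicle. Site 2, 2.00 kb from Aif1 at chr17:35387532-35388532, had 19.3, 27.5 and 36.6 in LPS, against 45.2, 37.3 and 52.5 in vehicle. In both, every LPS library lay below every vehicle library, narrowly at site 2.

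The log2 folds were -0.45 at site 3 (SE 0.15, limma adjusted p = 0.0192) and -0.71 at site 2 (SE 0.23, limma adjusted p = 0.0199). The remaining sites of this side did not pass. Site 7, inside Lst1, a gene of leukocytes, had a log2 fold of 0.35 (limma adjusted p = 0.0789), although its groups did not overlap. Site 1, which covers the start of the broadly expressed gene Prrc2a, had 0.08 (SE 0.20, limma adjusted p = 0.810), and sites 4, 5 and 6 had -0.18, -0.08 and 0.20.

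**Figure D3:**
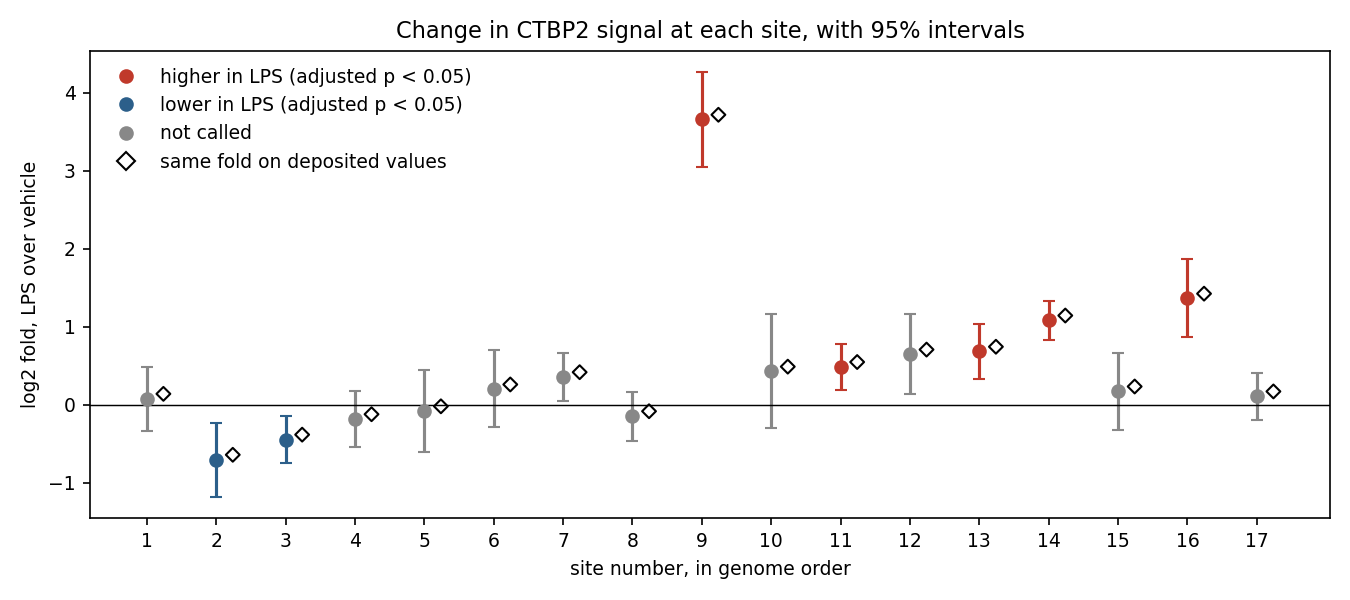
Log2 fold of LPS over vehicle at sites 1 to 17 in genome order, with 95% intervals from limma, coloured by call, and the same fold on the deposited values without scaling as open diamonds. Site 9 stands at 3.66, the other called gains lie between 0.48 and 1.37 to its right, and the called losses are sites 2 and 3.

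How firm these calls are differs between members. Site 9 passed on the deposited values without scaling (log2 fold 3.72, limma adjusted p = 4.19e-15) and was the only member to do so. The other 6 calls were lost there with folds close to those above. The log2 folds were 1.14 at site 14, 1.42 at site 16, 0.74 at site 13, 0.55 at site 11, -0.64 at site 2 and -0.39 at site 3. Their SEs were 0.42 to 0.47, against 0.12 to 0.25 on the scaled signal. The limma adjusted p was 0.169 at site 14, 0.0955 at site 16, 0.690 at site 13, 0.878 at site 11, 0.802 at site 2 and 0.984 at site 3. Sites 9, 13, 14 and 16 passed without each single library. Site 11 lost its call without LPS replicate 3 (log2 fold 0.34) and without vehicle replicate 1 (0.39). Site 2 lost it without LPS replicate 1 or 2 or vehicle replicate 1 or 3, with -0.72 to -0.48, and site 3 without LPS replicate 2 or 3 or vehicle replicate 1 or 2, with -0.45 to -0.36. In the authors' deposited table site 9 was the only member with an FDR under 0.05 (0.000166, deposited log2 fold 2.08), beside 4.01% of all sites that were higher and 0.37% that were lower by that rule. Sites 14 and 16 had an FDR of 0.0533 and 0.0719 in the authors' deposited table. In bulk chromatin, more cells with CTBP2 at a site and more CTBP2 per cell cannot be told apart.

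The nearest sites beyond the locus did not pass the test. They lay 66.6 kb from the Tnf start on one side and 40.6 kb on the other, and had log2 folds of -0.12 and 0.14 (limma adjusted p = 0.678 and 0.576). Centres of neighbouring members were 1.70 to 8.27 kb apart, with a median of 4.25 kb. By mean level over the 6 libraries, 10 of the 17 lay above the median site of the series.

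**Figure D4:**
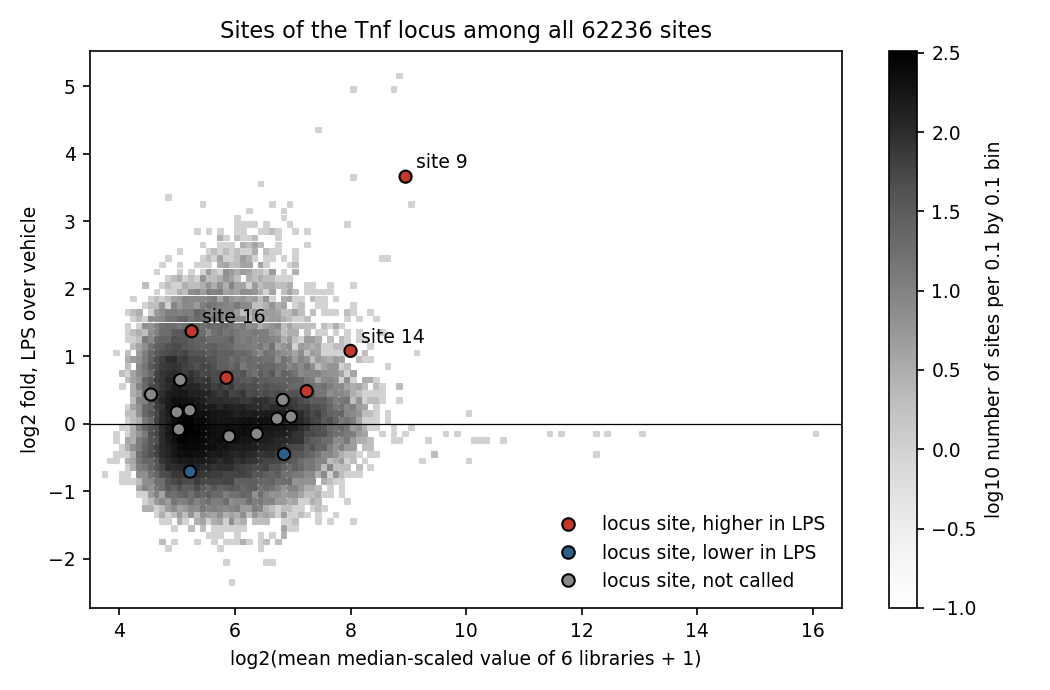
Log2 fold of LPS over vehicle against mean scaled signal (log2) for all 62236 sites as shaded bins, with the 17 sites of the locus as circles coloured by call. Site 9 stands apart at a log2 fold of 3.66 and site 14 lies at the strong end with 1.08. Site 16 is at the 97.3rd percentile of log2 fold, and site 10 at the 1.55th percentile of mean level.

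The sites outside the locus most like site 9 over the 6 libraries were sought by the Euclidean distance between their values of log2(scaled signal + 1), as a description. At most 1 site was kept per nearest gene start, so a further close site at a start already listed would not appear. The nearest was at chr11:83555262-83556262 with a distance of 1.08, 2.30 kb upstream of Gm51868, the closest start in the RefSeq table at the offset measured there. It averaged 949 ± 297 in LPS and 99.9 ± 22.7 in vehicle (SD, n = 3 each). The next, at chr11:83538096-83539096, lay in the same stretch of chromosome 11, so these 2 sites are neighbours. It was 1.48 kb past the start of Ccl3, which encodes a chemokine that macrophages secrete (distance 1.60, 636 ± 141 in LPS and 113 ± 15.9 in vehicle). A site 37.2 kb from the start of Fgfr4 followed (distance 1.76), then one at the start of Socs3, an inhibitor of cytokine signalling (2.13), and one on chromosome 16 that could not be placed (2.27). Their log2 folds were 3.21, 2.47, 2.44, 2.09 and 2.92, all below that of site 9.

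The other genes of TNF signalling were read from the site nearest each gene start, within 10 kb at an offset measured around each gene. Of 53 listed genes 38 could be measured in this way, at 37 sites since Tnf and Lta share one, of which 16 rose, none fell and 22 did not pass (limma adjusted p under 0.05 over all sites). At an unadjusted p under 0.05 the counts were 19 higher and 0 lower. The share that rose is 42.1%, beside 16.1% of all sites, and the measured genes' median log2 fold was 0.34. No set of sites of like signal level or like distance to a gene start was compared. Whether the higher share is particular to these genes was therefore not tested. On the deposited values without scaling 4 of the 16 passed (Traf1, Rnf31, Nfkb2 and Tnip1). Earlier results of these data already showed NF-kB genes among the gains, so this count is no independent evidence.

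The 3 ligands were read from 2 sites, since at the measured offset site 10 was the nearest to the starts of both Tnf and Lta. Site 10 lay 2.31 kb from the Tnf start and site 9, which rose by 3.66 on the log2 scale, lay 2.37 kb from it on the other side. The error of the offset was not measured, so which of these sites is the nearer is uncertain. Tnf is counted among the genes that did not pass because it was read from site 10. Read from site 9, it would count as risen. Neither the 2 ligand sites nor those of the 2 measured receptors passed, also at an unadjusted limma p under 0.05. Tnfrsf1a, the main TNF receptor, had 79.1 ± 4.35 in LPS and 96.6 ± 10.0 in vehicle, and Ltbr, the lymphotoxin beta receptor, had 129 ± 2.67 in LPS and 148 ± 20.9 in vehicle (SD, n = 3 each). Their log2 folds were -0.28 and -0.20 (limma adjusted p = 0.178 and 0.313). Tnfrsf1b was on the list but could not be measured in this way.

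Among adaptors and ubiquitin enzymes, 4 of 9 rose. Traf1, an adaptor of TNF receptors, had 152, 150 and 148 in LPS, against 47.6, 58.5 and 48.8 in vehicle (log2 fold 1.53, SE 0.15, limma adjusted p = 2.66e-09). Its groups were far apart. Among the others, Birc3, a ubiquitin ligase of the receptor complex, rose by 1.19 and Rnf31, the catalytic subunit of the linear ubiquitin ligase, by 1.47 on the log2 scale. The kinases Map3k7, Tab1, Tab3, Ikbkb and Map3k8 could not be measured. Of 4 measured kinases 1 rose, Map3k14, the kinase of the noncanonical NF-kB branch. Its log2 fold of 0.47 stood just inside the threshold (limma adjusted p = 0.0495) and passed in 1 of the 6 fits that left out a library, that without vehicle replicate 3.

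All 3 measured NF-kB subunit genes rose, with log2 folds of 1.43 for Nfkb2, 0.73 for Rel and 0.38 for Rela. Nfkb1 and Relb had no start in the RefSeq table and were not measured. The call of Rela (limma adjusted p = 0.0236) was lost without LPS replicate 2 or 3 or vehicle replicate 1 or 2, with log2 folds of 0.34 to 0.37. Nfkb2 had 277, 303 and 369 in LPS, against 107, 97.6 and 150.1 in vehicle, with no overlap. Of 8 feedback inhibitors 7 rose. Of these, Cyld lost its call without LPS replicate 1 or 2 or vehicle replicate 1, and Tnip3 without LPS replicate 2 or vehicle replicate 2. Tnip1, a partner of the ubiquitin-editing enzyme A20, had 155, 141 and 137 in LPS, against 33.3, 42.6 and 60.0 in vehicle, a log2 fold of 1.69 (SE 0.18). Tnfaip3, which encodes A20, rose by 0.87, Nfkbia by 1.09 and Nfkbib, which encodes an inhibitor that holds NF-kB in the cytoplasm, by 0.79.

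None of the 5 genes of the death branch (Fadd, Casp8, Cflar, Ripk3 and Mlkl) passed (limma, with 2 higher at an unadjusted p under 0.05), and their median log2 fold was 0.02. Of 4 genes that act on TNF protein or mRNA 1 rose, Zfp36, which encodes tristetraprolin, a protein that binds Tnf mRNA and speeds its decay. Zfp36 had 330.2, 345 and 285 in LPS, against 129, 141 and 178 in vehicle, with no overlap. Its log2 fold came to 1.11 (SE 0.14, limma adjusted p = 1.16e-07).

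**Figure D5:**
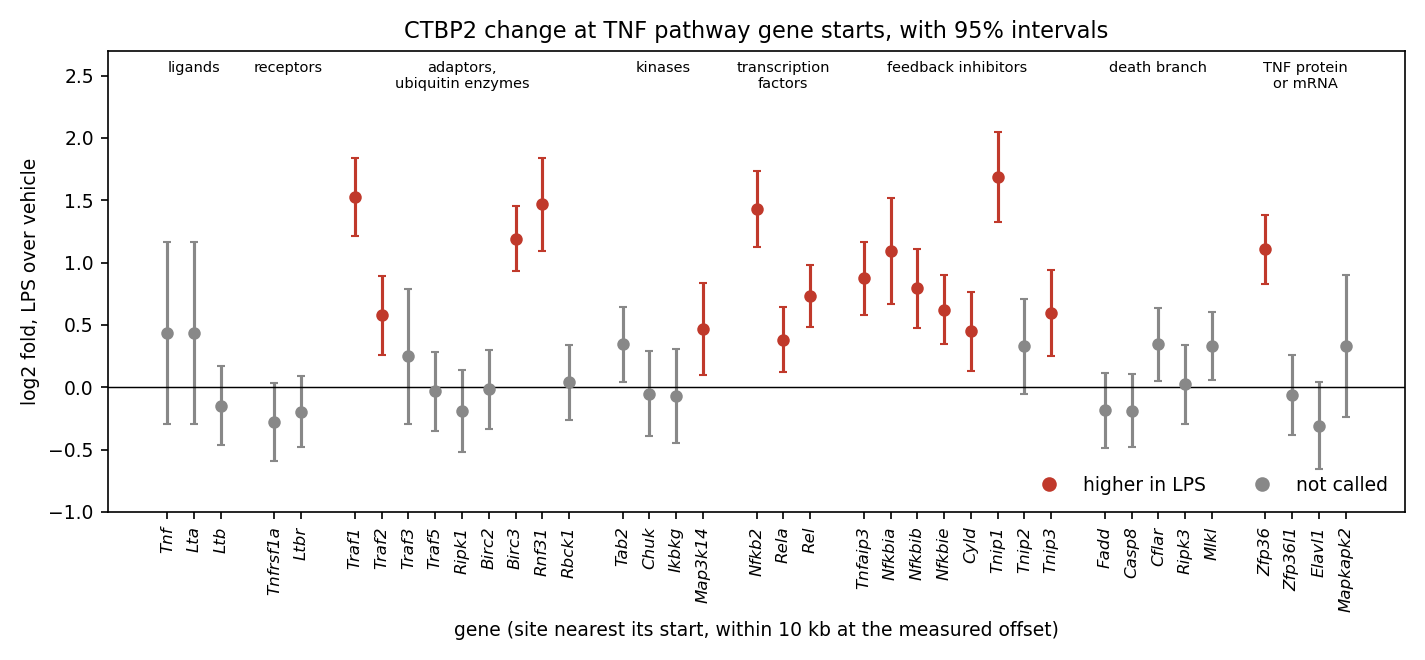
Log2 fold of LPS over vehicle at the site nearest the start of 38 TNF pathway genes, with 95% intervals from limma, grouped by role, red where the gene rose and grey where it did not pass. Of the measured genes, gains were called for 4 of 9 adaptors and ubiquitin enzymes, 1 of 4 kinases and 3 of 3 NF-kB subunits. They were also called for 7 of 8 feedback inhibitors and 1 of 4 genes acting on TNF protein or mRNA. Tnip1 was highest at 1.69. The Tnf and Lta points are the same site, site 10, and site 9 inside Tnf, with a log2 fold of 3.66, is not drawn.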

How the data were processed

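CTBP2 ChIP-seq signal was compared between 3 LPS and 3 vehicle libraries. The deposited table gives a normalised signal per site and library, and what set its scale was not stated in the labels. It also gives log2 concentrations, a log2 fold, p-values and FDR values that the authors deposited. The submitters' processing notes name BWA 0.7.17 and MACS3 3.0.0a5, SAMtools 1.9 and Picard 3.2.0, DiffBind 3.16 with R 4.4.1, and also bedtools, FastQC and deepTools 3.5.1, with no order or role. Pooled or separate peak calling: not given in the sources used here. Builds mm39, GRCm39 and mm10 are named there without a role.

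In each column all values up to 300 steps were whole multiples of 1 step within 0.1 step. If a step is 1 read, the sites held 3243258 to 4553181 reads per library, and site 9 held 764, 983 and 1066 in LPS and 46, 65 and 91 in vehicle. No count model was run, because these steps did not pass the check for recovered reads.

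Each library was scaled by its median (deposited medians 37.1, 48.8 and 61.0 in LPS and 35.5, 37.3 and 73.0 in vehicle). The model, without covariates, was limma 3.58.1 (R 4.3.3) with its robust and trend options, fitted to log2(scaled signal + 1) over all 62236 sites, with Benjamini-Hochberg adjustment. The fit was also run on simulated data with independent noise. Those had no differences in scale between libraries, so they do not test the scaling. Scaled log2 values correlated at 0.890 to 0.932 within groups and 0.692 to 0.763 between groups. Permutation tests used scipy 1.17.1.

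An offset was accepted where at least 8 starts had a site and at least 1.5 times as many as at any offset over 5 kb away. It was fitted on starts within 2 Mb, in steps of 50 bp up to 1 Mb. It placed 480 of 676 genes taken at even spacing, and 37.3% of their starts, each left out of its own fit, had a site within 500 bp, against 2.92% with no offset. The plan linked pathway genes to sites by a gene table of the same build or else by the deposited names, and the offset replaced these names after the mismatch was seen. Of the 53 pathway genes, 44 had a start in the RefSeq table and 38 were placed.

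Full values are given for called members and for those within 5 kb of Tnf, Lta or Ltb. Pathway genes named are the ligands and receptors and, per role, up to 3 risen genes with the smallest limma adjusted p. Nfkbib, genes whose call was lost without a library, and the death branch are named as well. Members, lists and tests were chosen with earlier results of these data known.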

Additional observations from a re-analysis of the deposited data

How the results depend on the processing

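Site 9 kept its direction and its call under every alternative run, with log2 folds of 3.58 to 3.72 across scalings, pseudocounts and models and 3.47 to 3.99 without each single library. Its log2 ratio to the other members was 3.38 to 3.45 under other pseudocounts or their mean, and 3.32 to 3.66 without each library. Without further scaling of the deposited values, sites higher and lower numbered 1178 and 30 over the series, against 10033 and 8408, and 1 and 0 in the locus, against 5 and 2. Pathway genes at the offset that rose then numbered 4, against 16. Under the deposited gene names, which place 2 of 34 genes at the same site as the offset does, 6 rose and 6 fell, and 0 and 0 without scaling (0 of either at the offset fell). Without limma's trend and robust options the locus had 4 higher members and 1 lower, with sites 3 and 11 losing their calls. At the offset 12 pathway genes then rose and 0 fell. Within 20 kb of the Tnf start 4 members were higher and 0 lower. Without each single library the locus had 4 to 7 higher and 0 to 1 lower members, the series 7691 to 10083 higher and 6031 to 7914 lower sites, and the pathway 12 to 19 higher and 0 lower genes at the offset, and 5 to 6 higher and 3 to 6 lower under the deposited names. The labels do not say whether same-numbered libraries were paired. Correlations of their deviations were 0.11, 0.04 and 0.21, against -0.205 to 0.148 between libraries of unlike number. Not every library correlated best with its own number. A fit with the replicate block called 7 higher and 2 lower members, and 20 higher and 0 lower pathway genes at the offset. Over the series it called 11691 higher and 10397 lower sites. In that fit site 9 kept its log2 fold of 3.66 with an SE of 0.11. The count models planned were not run. Site 10 lies at the 1.55th percentile of mean level, and its SE of 0.36 is the largest of the 17 members.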
